A study of Mus musculus with 2 samples.

Results

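The genes described here are 37 mouse genes of the hypoxia-inducible factor (HIF) pathway outside the glycolytic enzymes: the HIF subunits, the oxygen-sensing enzymes that control them, and HIF target genes of other functions. They were taken by symbol from a list, and all 37 were found among the 52550 genes of the count tables. The study compared untreated RAW264.7 cells, which are mouse macrophage-like cells immortalised with the Abelson leukaemia virus, grown in 2D culture and in 3D culture. Each culture method was represented by 1 library of polyadenylated RNA. The sources used here do not give how the 3D culture was made, how long it lasted or its oxygen tension. A single virus-transformed line limits both groups as a model of macrophages in tissue.

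HIF is a transcription factor made of an oxygen-labile alpha subunit, encoded by Hif1a or Epas1, and a stable partner encoded by Arnt. In the presence of oxygen, prolyl hydroxylases of the Egln family modify the alpha subunit, the VHL ubiquitin ligase recognises it, and the proteasome degrades it. Low oxygen stops this hydroxylation, so HIF is controlled mainly as a protein, and the mRNA of its subunits need not follow its activity. Macrophages also use HIF in inflammatory activation, and several HIF targets, among them Egln3, feed back on the pathway.

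Total counts were 14371084 for 2D culture and 16652503 for 3D culture. Paired values below give 2D first and 3D second. Values are TMM-scaled CPM, the counts of a gene per 1000000 counts of the library after a scaling (TMM) that assumes most genes to be alike in both. A gene counted as measured at a mean of at least 1 CPM over both libraries, and 11673 genes reached that level. Each ratio divides the 3D level by the 2D level. Its 95% interval is an exact Clopper-Pearson one, given both counts' sum, and covers counting error only; no molecular identifiers are named in the labels, so reads need not be independent molecules. With 1 library per culture method there is no replicate check and no p-value, and a difference of at least 2-fold was used as a rule of size. Scaling by total counts shifted every log2 ratio by -0.60, and scaling to 22 reference genes shifted it by -0.66, so the median log2 ratio of all measured genes was 0.05 with TMM, -0.56 with total counts and -0.61 with reference genes. All 10 macrophage markers examined were measured, including Csf1r and Cd68, with 7 at least 2-fold higher and 1, Ptprc, lower in 3D culture, and summed counts of 60810 and 134039. For 12 hepatocyte markers the summed counts were 26 and 347, of which Alb gave 8 and 232. Apoa2 went the other way, with 11 and 2. In 2D culture 6 markers were at 0, and in 3D culture 1, Trf. In the bulk libraries, fewer cells of a type and less RNA per cell cannot be told apart.

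Of the 37 genes, 35 were measured. Vldlr, a lipoprotein receptor, had 0 counts in both libraries, which allows up to 0.17 and 0.222 CPM. Tmem45a, a membrane protein gene, had 0 and 2 counts, and no ratio was formed for either gene. Epas1 passed the filter narrowly, with counts of 21 and 11. Of the 35 measured genes, 10 had a 3D level at least 2-fold above the 2D level, or 28.6%, beside 18.7% of all measured genes. The 10 were Ndrg1, Gys1, Anxa2, Selenbp1, P4ha2, Egln3, Higd1a, Adm, Fam162a and Egln1. Lower by at least 2-fold were 2 genes, Hif1a and Rora, or 5.71%, beside 20.8% of all measured genes. The remaining 23 lay between. The median log2 ratio of the 35 was 0.35, which is 0.30 above that of all measured genes. The split depended on the scaling: with total counts it was 6 higher and 7 lower, beside 5.59% and 36.5% of all genes, and with reference genes 5 higher and 7 lower, beside 4.94% and 37.8%. The relative median was 0.32 and 0.30 under those scalings.

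**Figure D1:**
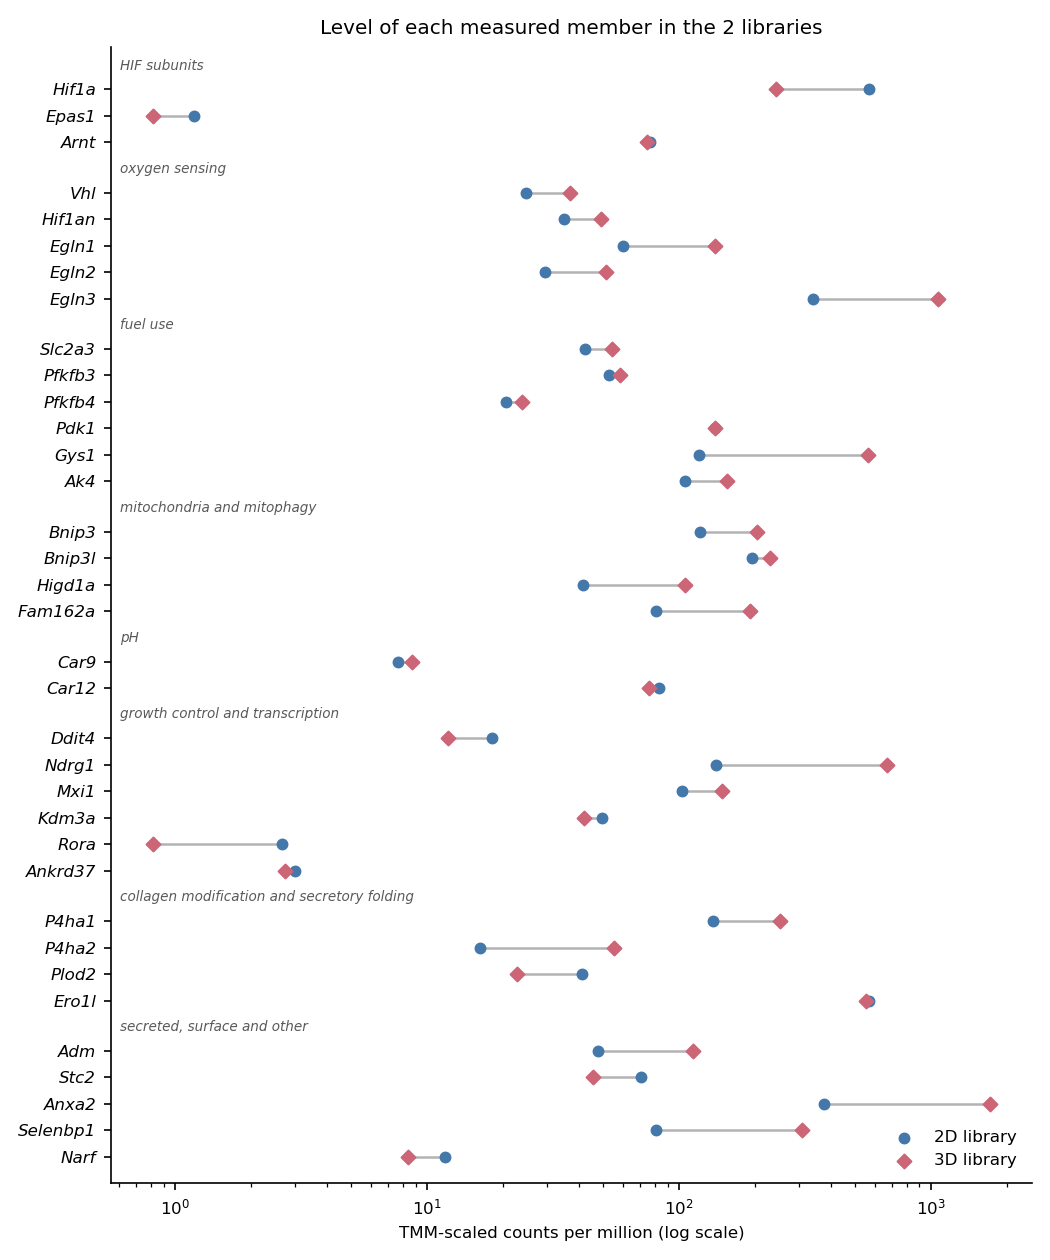
Level of each of the 35 measured genes in the 2D library (blue circles) and the 3D library (red diamonds), in TMM-scaled CPM on a log axis, with 1 library per culture method and genes grouped by role. Hif1a lies at 569 and 243 CPM, while Egln3, Gys1, Ndrg1 and Anxa2 lie at least 3-fold to the right of their 2D values in the 3D library.

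Of the 3 HIF subunit genes 1, Hif1a, was at least 2-fold lower in the 3D library, beside 20.8% of all measured genes, and the other 2 lay within 2-fold. Hif1a (ENSMUSG00000021109, chromosome 12, 73901375 to 73947530 on mm10), the oxygen-labile subunit, had 10057 counts in 2D and 3289 in 3D culture, or 569 and 243 CPM. That is a 2.34-fold lower level in the 3D library (95% interval 2.25 to 2.43), and it remained lower under each library scaling tried. Epas1, which encodes the alternative alpha subunit HIF-2alpha, had 21 and 11 counts, and its interval held a ratio of 1. Arnt, the constitutive partner, had 1359 and 1009 counts, or 76.8 and 74.6 CPM, a ratio of 0.97 (0.894 to 1.05). Its level was thus near equal under TMM scaling, with a log2 ratio of -0.64 under total counts. After adjustment for GC content, length and expression the log2 ratios were -0.81 for Hif1a, 0.37 for Epas1 and 0.10 for Arnt. Hif1a held 87.9% of the counts of these 3 subunit genes in 2D culture (87.3% to 88.5%, Wilson 95% interval) and 76.3% in 3D culture (75.0% to 77.6%), a share that no library scaling alters. An antisense gene, Gm15283, overlaps 330 exon bases of Hif1a and had 22 and 0 counts.

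All 5 oxygen-sensing genes had ratios above 1 under TMM scaling, but those of Vhl and Hif1an lay below 1 with total counts and with reference genes, and that of Egln2 after adjustment for GC content, length and expression (adjusted log2 ratio -0.25). The median log2 ratio of all measured genes was itself positive under TMM scaling, at 0.05, so a ratio above 1 was common. Egln3 (ENSMUSG00000035105, chromosome 12, 54178981 to 54203860), a HIF prolyl hydroxylase that is itself a HIF target, had 6011 and 14409 counts, or 340 and 1065 CPM. The 3D level was 3.13-fold higher (3.04 to 3.23), and the direction was kept under each scaling. Egln1, which encodes PHD2, the main hydroxylase of HIF-1alpha in most cells, stood at 59.99 and 139 CPM, a 2.32-fold difference (2.15 to 2.50). Egln2, the third hydroxylase, stood at 29.3 and 51.4 CPM, a ratio of 1.75 (1.56 to 1.97). Of the counts of the 3 Egln genes, Egln3 held 79.2% in 2D culture and 84.8% in 3D culture, Egln1 14.0% and 11.1%, and Egln2 6.84% and 4.10%. The Wilson intervals of each of these shares did not overlap between the libraries. Vhl, the substrate receptor of the ubiquitin ligase, had 24.6 and 37.02 CPM, a ratio of 1.51 (1.32 to 1.72). Hif1an, which encodes the asparaginyl hydroxylase FIH, had 35.1 and 48.8 CPM, a ratio of 1.39 (1.25 to 1.56).

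Among the genes of fuel use, glycogen synthase stood apart from the rest. Gys1 (ENSMUSG00000003865, chromosome 7, 45434844 to 45456619), the glycogen synthase of muscle and most other tissues, had 2112 and 7635 counts, or 119 and 564 CPM, a 4.72-fold higher level in the 3D library (4.502 to 4.96). It overlaps 310 exon bases of Ruvbl2 on the opposite strand, which had 1870 and 3429 counts, and whether the counting used strand is not known from the labels. The other 5 genes of this role lay within 2-fold. Pdk1, the kinase that inhibits pyruvate dehydrogenase and a classical HIF-1 target, stood at 139 and 138 CPM, a ratio of 0.997 (0.939 to 1.06). Pfkfb3 and Pfkfb4, whose products make the phosphofructokinase activator fructose 2,6-bisphosphate, had ratios of 1.10 (1.001 to 1.21) and 1.16 (0.995 to 1.35). The glucose transporter gene Slc2a3 had a ratio of 1.28 (1.15 to 1.41), and the mitochondrial adenylate kinase gene Ak4 had 1.47 (1.38 to 1.56). All 4 of these ratios lay below 1 with total counts and with reference genes, so their direction depends on the scaling. Slc2a3 holds a repeat shared with transcripts of many other genes, and Ak4 has a processed pseudogene at 99.6% identity over 672 bases, so their counts are uncertain.

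Shares within families set the members against their paralogs without any library scaling. Pdk1 held 71.5% of the counts of the pyruvate dehydrogenase kinase genes in 2D culture (70.0% to 73.0%) and 55.2% in 3D culture (53.6% to 56.9%), with Pdk3 at 27.2% and 40.9%. With counts divided by exon length the order was the other, with Pdk1 at 45.5% and 29.2% and Pdk3 at 52.6% and 65.7%. Slc2a3 held 10.1% of the counts of Slc2a1 and Slc2a3 together in 2D culture and 3.17% in 3D culture. After adjustment for GC content, length and expression their log2 ratios were close, at 0.65 for Slc2a3 and 0.77 for Slc2a1. Pfkfb3 held 55.1% and 65.2% of the Pfkfb counts, and Pfkfb2 had 344 and 67 counts. Such shares are of reads and not of molecules, since longer transcripts give more reads, and they are not adjusted for GC content.

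**Figure D2:**
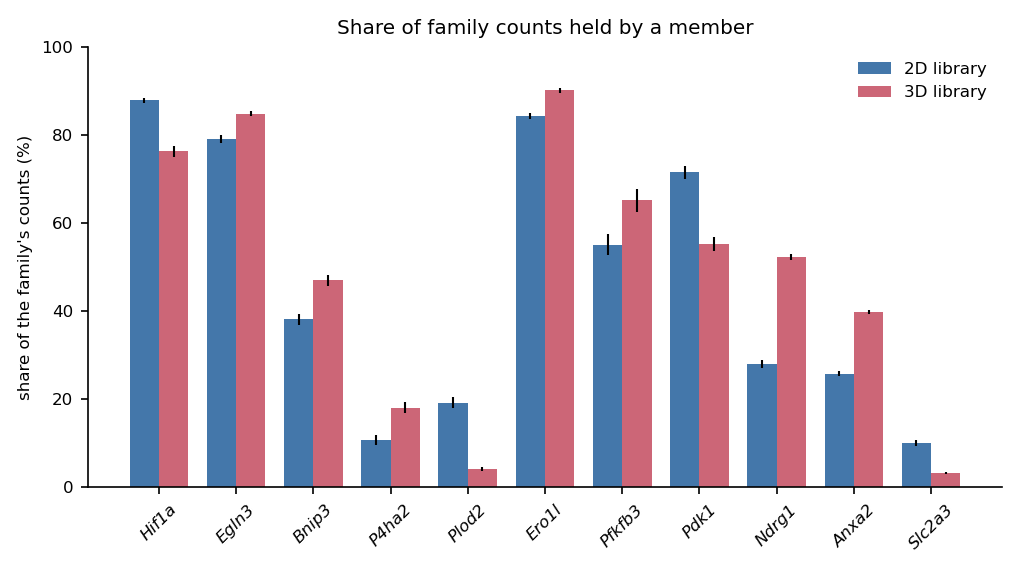
Share of a gene family's counts held by 1 of its genes in the 2D library (blue bars) and the 3D library (red bars), in percent, with Wilson 95% intervals for counting error as error bars. Ndrg1 goes from 28.1% to 52.4% and Plod2 from 19.2% to 4.13%, whereas Hif1a and Pdk1 hold smaller shares in the 3D library and Egln3, P4ha2 and Anxa2 larger ones.

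All 4 genes of the mitochondrial group had ratios above 1 under TMM scaling, beside a positive median log2 ratio of 0.05 for all measured genes. That of Bnip3l lay below 1 by total counts or reference genes. Higd1a, which encodes a small protein of the respiratory chain supercomplexes, had 733 and 1431 counts, or 41.4 and 106 CPM, a 2.55-fold difference (2.33 to 2.79). Fam162a, a HIF-responsive mitochondrial protein gene, had 81.1 and 192 CPM, a 2.37-fold difference (2.22 to 2.53). Both thus passed 2-fold under TMM scaling and neither did under total counts. Bnip3 and Bnip3l encode related mitophagy receptors of the outer mitochondrial membrane. Bnip3 stood at 121 and 204 CPM, a ratio of 1.69 (1.596 to 1.79), and Bnip3l at 195 and 230 CPM, a ratio of 1.18 (1.12 to 1.24). Bnip3 held 38.2% of the counts of this pair in 2D culture (36.9% to 39.4%) and 47.0% in 3D culture (45.7% to 48.3%). With counts divided by exon length, Bnip3 held 51.3% and 60.2% of the pair. Each has near-identical copies, such as Bnip3l-ps with 257 and 274 counts, so the share is uncertain. The carbonic anhydrase genes Car9 and Car12, whose products regulate pH at the cell surface and which are standard hypoxia markers in tumours, were near equal under TMM scaling. Car9 had 136 and 118 counts, a ratio of 1.13 (0.879 to 1.46) that lay below 1 by total counts or reference genes, and Car12 had 1475 and 1030 counts, a ratio of 0.913 (0.842 to 0.989).

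The genes of growth control and transcription held both ends of the range of ratios. Ndrg1 (ENSMUSG00000005125, chromosome 15, 66929318 to 66969640), a differentiation and stress-response gene strongly induced by hypoxia in many cell types, had 2478 and 9076 counts, or 140 and 671 CPM. The 4.79-fold higher level in the 3D library (4.58 to 5.01) was the highest of the 35 ratios. Its paralogs differed less, with Ndrg2 at a ratio of 2.37, Ndrg3 at 1.88 and Ndrg4 at 0.995. Ndrg1 thereby held 28.1% of the counts of the Ndrg genes in 2D culture (27.1% to 29.0%) and 52.4% in 3D culture (51.6% to 53.1%). With counts divided by exon length, its share was 20.9% and 41.3%, beside 41.1% and 40.2% for Ndrg2. At the other end, Rora, a nuclear receptor gene, had 47 and 11 counts, a 3.27-fold lower level in the 3D library with a wide interval (1.67 to 6.99) that reaches below 2-fold. Ddit4, which encodes the mTORC1 inhibitor REDD1, had 321 and 163 counts, or 18.2 and 12.0 CPM, and was 1.51-fold lower (1.24 to 1.83). Mxi1, a MYC antagonist, had a ratio of 1.45 (1.36 to 1.54) that lay below 1 by total counts or reference genes. The histone demethylase gene Kdm3a had a ratio of 0.851 (0.764 to 0.947), and Ankrd37, an ankyrin repeat gene induced by HIF-1, had 53 and 37 counts with an interval that held 1.

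Genes for collagen modification and secretory folding had ratios on both sides of 1. P4ha2 (ENSMUSG00000018906, chromosome 11, 54100095 to 54131665), a catalytic subunit of collagen prolyl 4-hydroxylase, had 287 and 747 counts, or 16.2 and 55.2 CPM, a 3.40-fold higher level in the 3D library (2.96 to 3.91). The sister subunit gene P4ha1 had 136 and 250 CPM, a ratio of 1.84 (1.75 to 1.94). P4ha2 held 10.7% of the counts of the P4ha genes in 2D culture (9.55% to 11.9%) and 18.1% in 3D culture (16.9% to 19.3%). Plod2, the lysyl hydroxylase that modifies collagen telopeptides, went the other way, with 731 and 307 counts and a 1.82-fold lower level (1.59 to 2.09). After the adjustment for GC content, length and expression its log2 ratio went from -0.87 to 0.01. Its paralogs Plod1 and Plod3 were each 3.03-fold higher, and Plod2 held 19.2% of the counts of the 3 genes in 2D culture (17.99% to 20.5%) and 4.13% in 3D culture (3.70% to 4.61%). Ero1l, the oxidase that drives disulfide formation in the endoplasmic reticulum, was near equal under TMM scaling at 568 and 555 CPM, a ratio of 0.975 (0.947 to 1.01). Its paralog Ero1lb had a ratio of 0.570.

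Of the secreted, surface and other genes, 3 of 5 measured had 3D levels at least 2-fold higher, beside 18.7% of all measured genes. With total counts Adm no longer passed 2-fold, and after adjustment for GC content, length and expression only 1, Anxa2, did. Anxa2 (ENSMUSG00000032231, chromosome 9, 69453620 to 69491795), a calcium-dependent membrane-binding protein, had 6677 and 23234 counts, or 378 and 1717 CPM, a 4.55-fold difference (4.43 to 4.67). Among 7 annexin genes its share of counts was 25.8% in 2D culture (25.3% to 26.3%) and 39.8% in 3D culture (39.4% to 40.2%), while Anxa5 held 43.4% and 43.6%. Adm, which encodes the vasodilator peptide adrenomedullin, had 846 and 1536 counts, or 47.8 and 114 CPM, a 2.37-fold difference (2.18 to 2.58). The transcripts of its receptor were scarce: Calcrl had 19 and 6 counts, and none of Ramp1, Ramp2 and Ramp3 exceeded 3 counts in either library. Selenbp1, which encodes a methanethiol oxidase, had 1438 and 4162 counts, or 81.3 and 308 CPM, a 3.78-fold difference (3.56 to 4.02). Selenbp2, 98.5% identical to it over 1712 bases, had 33 and 135 counts, so how reads were divided between them is uncertain. Selenbp1 is also abundant in liver; its 1438 counts from 2D culture stood beside 26 for all 12 hepatocyte markers, and its 4162 from 3D culture beside 347, and the part of such RNA in the difference was not tested. Stc2, a secreted glycoprotein gene, was lower in 3D culture by 1.55-fold (1.41 to 1.71), with 1253 and 617 counts. Narf, a nuclear prelamin A recognition factor gene, was 1.40-fold lower (1.11 to 1.77), with 208 and 114 counts.

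**Figure D3:**
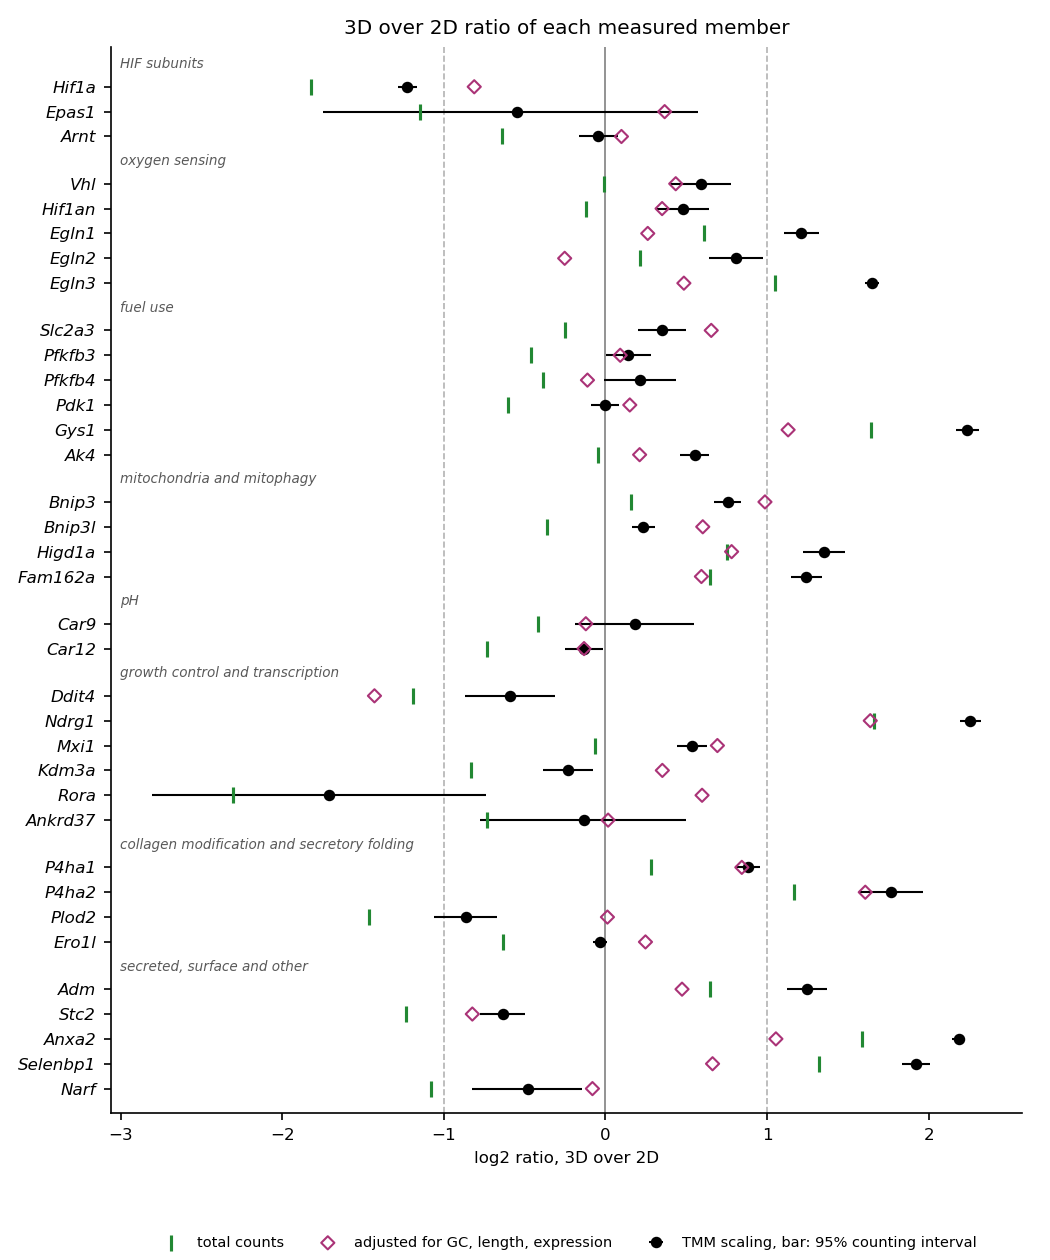
Log2 ratio of the 3D over the 2D library for the 35 measured genes: black points under TMM scaling with 95% counting intervals, green ticks under total counts, and open diamonds after adjustment for GC, length and expression. Dashed lines mark 2-fold; 10 black points lie at or beyond the right line and 2 beyond the left, against 4 and 1 diamonds.

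Compared per length, the order of the most abundant genes changed. Per kilobase of exon, the highest levels in the 2D library were those of Egln3 at 128 CPM per kilobase, Ero1l at 108, Anxa2 at 101, Hif1a at 96.4 and Fam162a at 95.5. In the 3D library they were those of Anxa2 at 460, Egln3 at 400, Fam162a at 226, Selenbp1 at 135 and Gys1 at 118. Hif1a stood at 41.2 there. All 37 genes together made up 0.469% of 2D counts and 0.603% of 3D counts.

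Counting error alone was small beside most of the ratios of the members. Under TMM scaling, the 95% interval lay above 1 for 20 of the 35 genes, below 1 for 8, and held 1 for 7, namely Epas1, Arnt, Pfkfb4, Pdk1, Car9, Ankrd37 and Ero1l. Such intervals were not counted over all measured genes, so these numbers do not set the members apart. The interval bound nearest to 1 was itself beyond 2-fold for all 10 higher genes and for Hif1a, but not for Rora, beside 13.1% of all measured genes upward and 14.4% downward. At a size of 1.5-fold, 14 members were higher and 5 lower, beside 31.7% and 30.4% of all measured genes, and at 4-fold 3 and 0, beside 2.23% and 6.67%. Of the 22 genes with a ratio above 1, 9 turned below 1 under total counts, and the same 9 did so under the reference genes.

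The ratios of the members moved with the GC content of their transcripts, as those of all genes did. With measured genes ranked by GC content and cut into 4 equal groups, the lowest group spans 30.8% to 44.8%. There, where Hif1a, Rora, Plod2, Ero1l, Bnip3 and Bnip3l lie, the median log2 ratio was -0.99 for all genes and -0.45 for the 6 members. In the highest group, 54.3% to 73.7%, it was 0.86 for all genes and 1.01 for the 6 members, and 42.6% of all genes there were at least 2-fold higher. Adjustment for GC content, for exon length and for mean expression left 4 of the 10 higher genes at least 2-fold higher, beside 11.1% of all genes. They were Ndrg1 with an adjusted log2 ratio of 1.64, P4ha2 with 1.61, Gys1 with 1.13 and Anxa2 with 1.05. The other 6 kept their direction at adjusted log2 ratios of 0.78 for Higd1a, 0.66 for Selenbp1, 0.59 for Fam162a, 0.49 for Egln3, 0.47 for Adm and 0.26 for Egln1. Hif1a had an adjusted log2 ratio of -0.81 and Rora turned to 0.60. The adjusted log2 ratio was also on the other side of 0 for Egln2, at -0.25, Plod2, at 0.01, Kdm3a, at 0.35, and Epas1, at 0.37, among others closer to 0 under TMM scaling. Ddit4, a GC-rich gene at 57.9%, was the only member at least 2-fold lower after adjustment, with -1.43, beside 9.29% of all genes. Bnip3, a GC-poor gene at 41.6%, had an adjusted log2 ratio of 0.99. The adjusted median of the 35 genes was 0.35, again 0.30 above that of all measured genes. The part of GC content in the differences of single members was not tested beyond this adjustment.

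**Figure D4:**
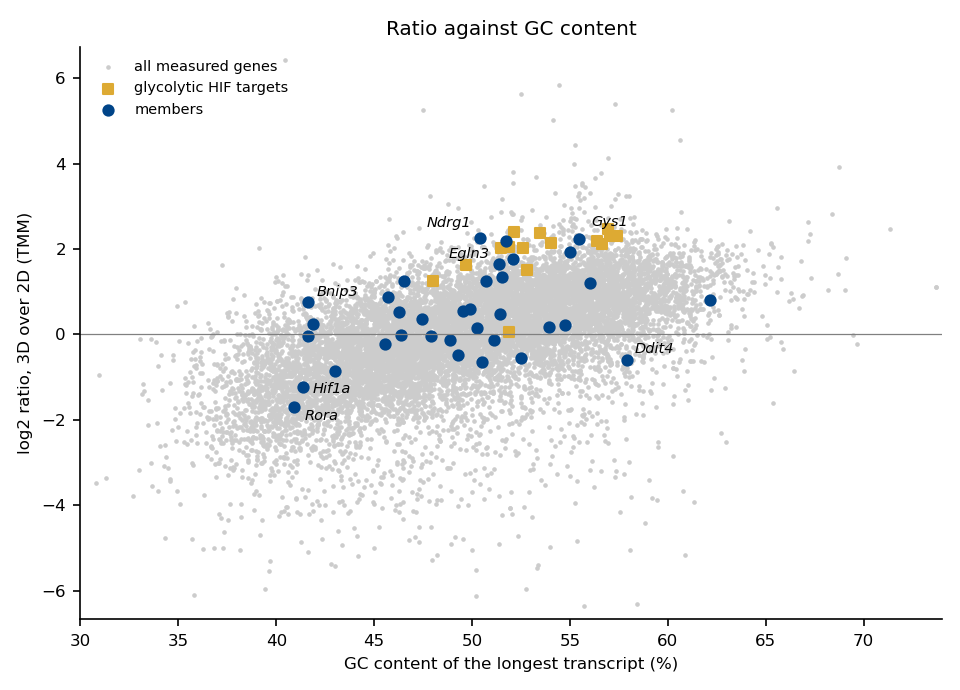
Log2 ratio of the 3D over the 2D library under TMM scaling against GC content of the longest transcript in percent, for all measured genes (grey), the 35 members (blue) and glycolytic HIF targets (yellow squares). Hif1a and Rora lie at the GC-poor end with log2 ratios of -1.23 and -1.71, while Ndrg1 reaches 2.26 at a GC content of 50.4% and Ddit4 lies at -0.59 with 57.9%.

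Other genes of the pathway were set beside the members. Of all measured genes, 18.7% passed 2-fold upward and 20.8% downward, or 5.59% and 36.5% under total counts. Of 15 glycolytic HIF targets, 14 passed 2-fold upward and 0 downward, or 12 and 0 under total counts, with a median log2 ratio of 2.11. The 4 with the largest ratios were Aldoa at 5.55-fold, Gpi1 at 5.28-fold, Tpi1 at 5.21-fold and Pfkl at 4.92-fold, and only Hk2, the inducible hexokinase, was near equal at a ratio of 1.04. After adjustment 4 of the 15 remained at least 2-fold higher, beside 11.1% of all genes, and the median was 0.77. Of 28 measured further HIF targets of a list of 35, 15 were higher and 2 lower, or 8 and 5 under total counts, with a median log2 ratio of 1.06 and an adjusted one of 0.57. After adjustment 9 of this list were at least 2-fold higher and 0 lower, beside 11.1% and 9.29% of all genes. Its largest ratios were those of Plin2, a lipid droplet coat protein, at 14.0-fold, Hmox1, the heme oxygenase, at 12.8-fold, and Pgf, a growth factor of the VEGF family, at 6.43-fold. Vegfa, the angiogenic factor, had a ratio of 0.782. Both lists held a larger share of genes past 2-fold than the 10 of 35 members; the lists were chosen with earlier results of these data known, and no test of the difference was made.

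**Figure D5:**
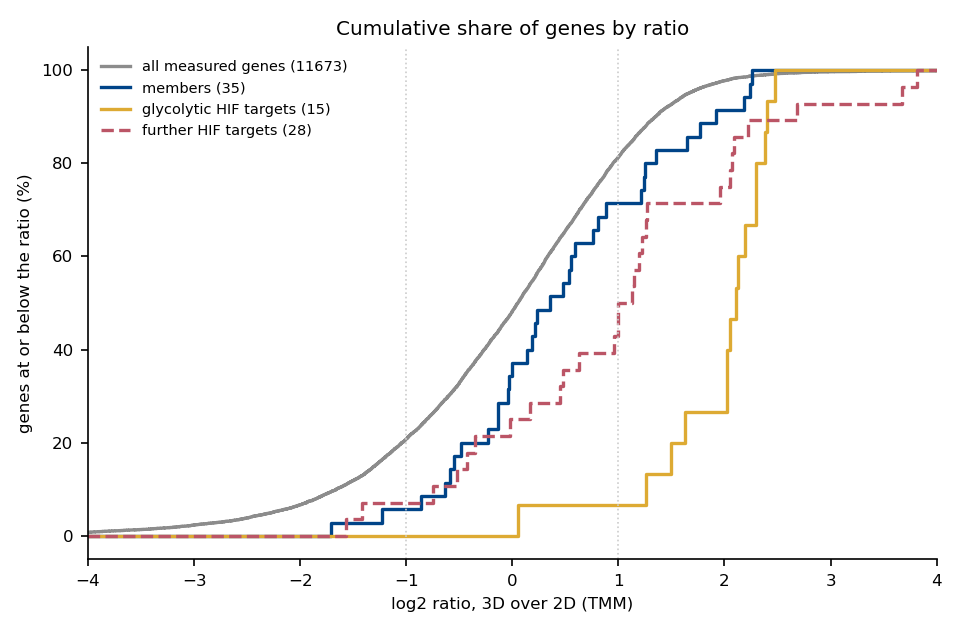
Cumulative percent of genes at or below a given log2 ratio of the 3D over the 2D library under TMM scaling, for all 11673 measured genes (grey), the 35 members (blue), 15 glycolytic HIF targets (yellow) and 28 further HIF targets (dashed red). The members lie between all genes and the glycolytic targets, with medians of 0.05, 0.35 and 2.11 for all genes, members and glycolytic targets.

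Partners of the HIF machinery showed no common direction under TMM scaling. Of 18 genes 16 were measured, with 4 past 2-fold upward and 4 downward, beside 18.7% and 20.8% of all measured genes. Under total counts 1 passed upward and 7 downward, beside 5.59% and 36.5%. After adjustment for GC content, length and expression 1 passed upward and 2 downward, beside 11.1% and 9.29%. Elob, the elongin B adaptor of the VHL ligase, was 3.52-fold higher and Rbx1, another subunit, 2.01-fold higher. Cul2, the cullin scaffold of that ligase, had a ratio of 0.670 and Eloc, the elongin C adaptor, 0.643. After adjustment the log2 ratios of these subunit genes were all positive, at 0.21 for Elob, 1.66 for Rbx1, 0.37 for Cul2 and 0.54 for Eloc. Crebbp, the histone acetyltransferase CBP that HIF recruits, was 3.00-fold lower, Siah1a, a ubiquitin ligase that acts on the hydroxylases, 3.06-fold lower, and Zfp292 5.11-fold lower. Among 32 measured genes in a list of 44 paralogs and receptor partners of members, 9 were higher and 4 lower, or 3 and 5 under total counts. After adjustment 4 of them were higher and 2 lower. The same shares of all measured genes stand beside these counts. The 4 with the largest differences were Selenbp2 at 5.35-fold higher, Pdk2 at 4.01-fold higher, Pfkfb2 at 3.93-fold lower and Jmjd1c at 3.34-fold lower.

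HIF binds DNA at the hypoxia response element, whose core is ACGTG or, with another first letter, GCGTG. The promoter windows of the members, 250 bases before to 50 after the transcription start on build GRCm38.p6 (RefSeq), were searched for these letters and their reverse complements, so on both strands. Matches that overlap one another are shown as a single run of capitals. Windows were found for 32 of the 37 genes, and the first window given for each gene was used. A core was present in 26 of the 32, or 81.2%, beside 43.8% of the windows of all 27025 genes and 65.0% of those of 8721 measured genes. ACGTG alone was present in 17, or 53.1%, beside 19.7% and 26.8%. Of the members at least 2-fold higher, 8 of 9 with a window held a core, as did 17 of the 21 other measured members. For ACGTG alone it was 7 of 9 and 10 of 21, and the difference was not tested. RefSeq start sites can differ from the gene bounds given above, and a match describes letters in the window and not binding. Of the 8 genes highest and the 3 lowest by the interval bound nearest 1, the 9 with a window are shown 5′ to 3′, with the core letters in capitals, to set both ends of the range side by side.
Gys1, chr7:45434589-45434888, plus strand: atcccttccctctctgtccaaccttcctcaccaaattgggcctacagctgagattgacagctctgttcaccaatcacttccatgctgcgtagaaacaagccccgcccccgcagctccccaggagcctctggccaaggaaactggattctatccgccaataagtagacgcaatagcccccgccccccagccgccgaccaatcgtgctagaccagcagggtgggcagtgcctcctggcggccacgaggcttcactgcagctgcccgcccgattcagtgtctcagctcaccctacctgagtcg
Anxa2, chr9:69453433-69453732, plus strand: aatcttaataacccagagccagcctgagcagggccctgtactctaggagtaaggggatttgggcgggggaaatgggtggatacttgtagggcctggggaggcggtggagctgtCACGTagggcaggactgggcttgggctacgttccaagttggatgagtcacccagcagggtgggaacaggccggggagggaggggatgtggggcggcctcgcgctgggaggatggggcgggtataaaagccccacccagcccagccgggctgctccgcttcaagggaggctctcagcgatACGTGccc
Selenbp1, chr3:94932833-94933132, plus strand: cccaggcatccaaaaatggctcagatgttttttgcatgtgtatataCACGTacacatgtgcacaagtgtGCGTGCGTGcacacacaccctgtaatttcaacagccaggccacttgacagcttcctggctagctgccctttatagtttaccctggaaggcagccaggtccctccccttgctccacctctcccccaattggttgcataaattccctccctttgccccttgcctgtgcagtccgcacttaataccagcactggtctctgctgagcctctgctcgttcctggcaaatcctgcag
Egln3, chr12:54203825-54204124, minus strand: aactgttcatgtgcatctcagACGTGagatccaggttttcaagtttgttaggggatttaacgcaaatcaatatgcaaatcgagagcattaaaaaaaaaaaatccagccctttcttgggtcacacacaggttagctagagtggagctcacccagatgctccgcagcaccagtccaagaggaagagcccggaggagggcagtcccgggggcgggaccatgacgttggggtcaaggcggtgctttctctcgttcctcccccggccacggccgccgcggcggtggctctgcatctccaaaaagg
P4ha2, chr11:54100674-54100973, plus strand: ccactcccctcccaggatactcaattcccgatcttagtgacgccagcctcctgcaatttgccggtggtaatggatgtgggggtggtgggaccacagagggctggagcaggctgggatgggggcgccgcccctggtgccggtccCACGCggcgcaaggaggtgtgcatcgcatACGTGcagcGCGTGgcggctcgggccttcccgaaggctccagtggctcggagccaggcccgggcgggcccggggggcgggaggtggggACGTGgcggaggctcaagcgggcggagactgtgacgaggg
Higd1a, chr9:121857747-121858046, minus strand: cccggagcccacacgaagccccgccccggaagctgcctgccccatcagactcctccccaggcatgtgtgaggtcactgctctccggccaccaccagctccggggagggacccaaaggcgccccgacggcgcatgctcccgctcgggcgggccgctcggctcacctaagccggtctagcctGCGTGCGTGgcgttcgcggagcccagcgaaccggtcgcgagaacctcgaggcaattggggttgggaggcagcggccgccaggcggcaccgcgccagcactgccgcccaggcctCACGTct
Fam162a, chr16:36071512-36071811, minus strand: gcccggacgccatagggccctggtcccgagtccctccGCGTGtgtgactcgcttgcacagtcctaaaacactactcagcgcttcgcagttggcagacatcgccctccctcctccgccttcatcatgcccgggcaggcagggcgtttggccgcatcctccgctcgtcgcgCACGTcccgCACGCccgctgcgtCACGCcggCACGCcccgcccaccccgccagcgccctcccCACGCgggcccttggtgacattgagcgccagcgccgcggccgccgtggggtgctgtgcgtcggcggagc
Hif1a, chr12:73907617-73907916, plus strand: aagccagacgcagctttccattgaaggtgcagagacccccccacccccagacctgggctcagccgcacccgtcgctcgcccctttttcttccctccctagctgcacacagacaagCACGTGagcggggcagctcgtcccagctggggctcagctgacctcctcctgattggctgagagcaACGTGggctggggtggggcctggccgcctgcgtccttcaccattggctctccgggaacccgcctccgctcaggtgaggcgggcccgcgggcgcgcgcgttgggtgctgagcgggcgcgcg
Rora, chr9:68653536-68653835, plus strand: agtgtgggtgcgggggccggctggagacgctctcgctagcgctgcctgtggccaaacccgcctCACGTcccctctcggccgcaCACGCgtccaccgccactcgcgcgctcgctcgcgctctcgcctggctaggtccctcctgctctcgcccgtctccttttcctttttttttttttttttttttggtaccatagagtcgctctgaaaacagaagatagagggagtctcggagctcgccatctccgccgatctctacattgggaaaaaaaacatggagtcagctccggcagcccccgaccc

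Gys1, with the second highest ratio of the 35, had no core in its window, whereas Fam162a had 6 separate runs, the most of the windows shown, at a ratio of 2.37. Hif1a and Rora, both lower in 3D culture, each had 2 separate runs. Of members whose interval held 1 under TMM scaling, Ero1l and Ankrd37 had 3 runs each, Pdk1 had 2, and Arnt, Car9 and Pfkfb4 had 1 each. Epas1 had no window. Car12, at a ratio of 0.913, had 0 runs.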

How the data were processed

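RNA of RAW264.7 cells from 2D and 3D culture was sequenced as 1 library per culture method, after TRIzol extraction and with a TruSeq stranded mRNA kit, per the labels' protocols. The authors deposited raw read counts per Ensembl gene, made with Trimmomatic, HISAT2 and HTSeq on mm10, per the submitters' processing notes. The sources used here give no versions, annotation release, strand setting or treatment of multi-mapping reads. Of 52550 identifiers, 52403 (99.7%) matched GENCODE M21.

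Counts were scaled with TMM in edgeR 4.0.16. Ratios were formed from scaled counts, with a floor of 3 counts for a library at 0 and no ratio where neither library exceeded it. Tried instead were total counts, reference genes, upper quartiles or DESeq2 1.42.0 size factors for scaling, other filters and folds, a pseudocount of 1 CPM, protein-coding genes only, thinning to 0.5 of the smaller total, and natural cubic splines of 4 degrees of freedom on GC content, exon length and mean expression (patsy 1.0.2), available for 99.9% of measured genes. Near-identical copies were found with blastn 2.17.0 at 95% identity over at least 100 bases of each member's longest transcript, against all M21 transcripts. The code was tested on simulated counts.

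The members and lists were chosen with earlier results of these data known, and the family shares after their values were seen. All members are named; of each other list, the up to 4 measured genes with the largest log2 ratios in either direction, Vegfa, and a few paralogs and partners outside this rule, chosen after their values were seen. A gene that this rule would name is not reported here. Marker lists for fibroblasts (20 and 17 counts in the 2D and 3D libraries), endothelium (392 and 754, of which Vwf gave 357 and 714), epithelium (5 and 15), erythroid cells (7 and 3) and T cells (97 and 96, of which Lck gave 96 in each) were also summed.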

Additional observations from a re-analysis of the deposited data

How the results depend on the processing

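Without replicates no library could be left out, and no paired analysis was possible because each culture method has 1 library. Among the 35 members, 10 were at least 2-fold higher and 2 lower. Both counts were also 10 and 2 with DESeq2 size factors, upper-quartile factors, no filter, a pseudocount of 1 CPM, protein-coding genes only and thinned libraries. The counts became 6 and 7 with total counts, 5 and 7 with reference genes, and 4 and 1 after adjustment for GC content, length and expression. A minimum of 5 CPM left 1 lower gene, since Rora falls below it, and so did the rule on the interval bound. At 1.5-fold 14 were higher and 5 lower, beside 31.7% and 30.4% of all measured genes, and at 4-fold 3 and 0, beside 2.23% and 6.67%. The 4 calls lost with total counts were Egln1, Higd1a, Fam162a and Adm; the reference genes also ended that of Egln3. The 5 genes added as lower by both scalings were Epas1, Ddit4, Plod2, Stc2 and Narf. Rora, called lower, turned to an adjusted log2 ratio of 0.60; the cause was not tested. The median relative to all genes was 0.30, and over the other settings it ranged from 0.24 with thinned libraries to 0.45 with no filter. Without the filter more low genes with low ratios enter the comparison. The number of promoters with a core went from 26 to 17 with ACGTG alone. Depth limits Epas1, Rora and Ankrd37, whose intervals are the widest.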
